A study of Mus musculus with 26 samples.

Results

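Cold exposure of fasted mice lacking Klf15 in brown fat was examined by comparing 3 libraries labelled K15-BKO BAT cold+fasting with 3 labelled K15BKO BAT RT+fasting, which are 6 of the 26 RNA-seq libraries of the series. All 6 mice carried the genotype Ucp1-Cre/+;K15F/F, in which a Cre recombinase under the brown-adipocyte Ucp1 promoter acts on a floxed Klf15 gene, and all were 2 months old. Both groups were fasted, so the groups differ in the label for cold against room temperature. For context, 4 libraries labelled K15-BKO BAT cold (treatment given as Cold challenge, with no statement on feeding) and 3 labelled K15BKO BAT RT (fed, room temperature) of the same genotype and age were used, as were 6 libraries of fasted KLF15 flox/flox mice of that age, 3 in the cold and 3 at room temperature. The labels give neither the temperature nor the length of the cold or the fast. Each library title carries a number of its own, which differs between all libraries, but the labels do not say in words that these are separate mice, so p-values measure the spread between these libraries. The cold-fasted libraries have library numbers 21, 24 and 25, and those fasted at room temperature have 26, 27 and 28, so cold and that run of numbers cannot be told apart.

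Brown adipocytes make heat by letting protons leak back into the mitochondrial matrix through UCP1, and in the cold they take up glucose and fatty acids as fuel while also making new fatty acids. In fasting, low insulin and high glucocorticoid normally shift tissues from making lipid towards breaking down lipid and amino acids. KLF15 is a Krüppel-like zinc finger factor known for its induction by fasting and glucocorticoid and for its control of amino acid and lipid fuel use, also in brown fat.

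Expression was given as FPKM, a fragment count divided by transcript length and by the number of fragments mapped in that library, and differences were computed on log2(FPKM + 1), a scale that understates changes of genes near 1 FPKM. Across the 6 libraries FPKM summed to between 408080 and 501068, and between 11345 and 11868 genes reached 1 FPKM. Library 3 of the cold-fasted group held both the highest sum and the fewest such genes. In the fit with array weights, which count libraries with more spread less, it had the lowest weight of the 13 knockout libraries (0.253). Read depth is unknown, since FPKM carries no counts. Correlations of log2(FPKM + 1) across genes lay between 0.981 and 0.991 for pairs of libraries within a group and between 0.934 and 0.95 for pairs across the groups, a description in which genes are not independent replicates. Of 13 genes for proteins encoded in mitochondrial DNA, 11 are listed at exactly 0 in all 6 libraries, and Scd1 is listed at 0 in all 6. Gpd1 and Fasn are listed at 0 in the 3 cold-fasted libraries beside 1243 to 1536 FPKM for Gpd1 and 625 to 796 FPKM for Fasn in the other group. These exact zeros were taken as failed estimates and given no difference.

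Klf15, the targeted gene, was below the level of fasted flox/flox mice in every library of both groups. The cold-fasted libraries held 2.86, 3.34 and 3.82 FPKM of Klf15 and those fasted at room temperature held 8.92, 7.94 and 8.82 FPKM. Fasted flox/flox libraries held 21.7, 16.4 and 15.4 FPKM in the cold and 24.5, 18.8 and 29.2 FPKM at room temperature. The residual Klf15 signal of the knockouts was lower in cold than at room temperature in every library, by 1.14 on the log2 scale (SE 0.14, limma adjusted p = 2.59e-05, n = 3 and 3). The table does not separate reads of the floxed exons from the rest of the gene, or adipocytes from other cells that keep the gene.

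Cold-fasted knockouts differed from room-temperature fasted ones in a large share of the transcriptome. Lipid synthesis, glucose use and sterol synthesis genes were higher in the cold-fasted group, and glucocorticoid-responsive, fasting-induced and immediate-early genes were lower. Cold and the run of library numbers cannot be told apart in these differences, and the length of the fast is not given. Of 11798 genes tested, 5161 passed the threshold of an adjusted p under 0.05 (43.7%, limma with Benjamini-Hochberg adjustment), of which 2650 were higher (22.5%) and 2511 lower (21.3%) in cold. Groups that did not overlap in any library were found for 3082 genes with higher values in cold (26.1%) and for 3050 with lower values (25.9%). Large changes were fewer, with 420 genes higher (3.56%) and 327 lower (2.77%) by at least 1 on the log2 scale, and 71 higher (0.602%) and 47 lower (0.398%) by at least 2. The median difference over all genes was -0.012.

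**Figure D1:**
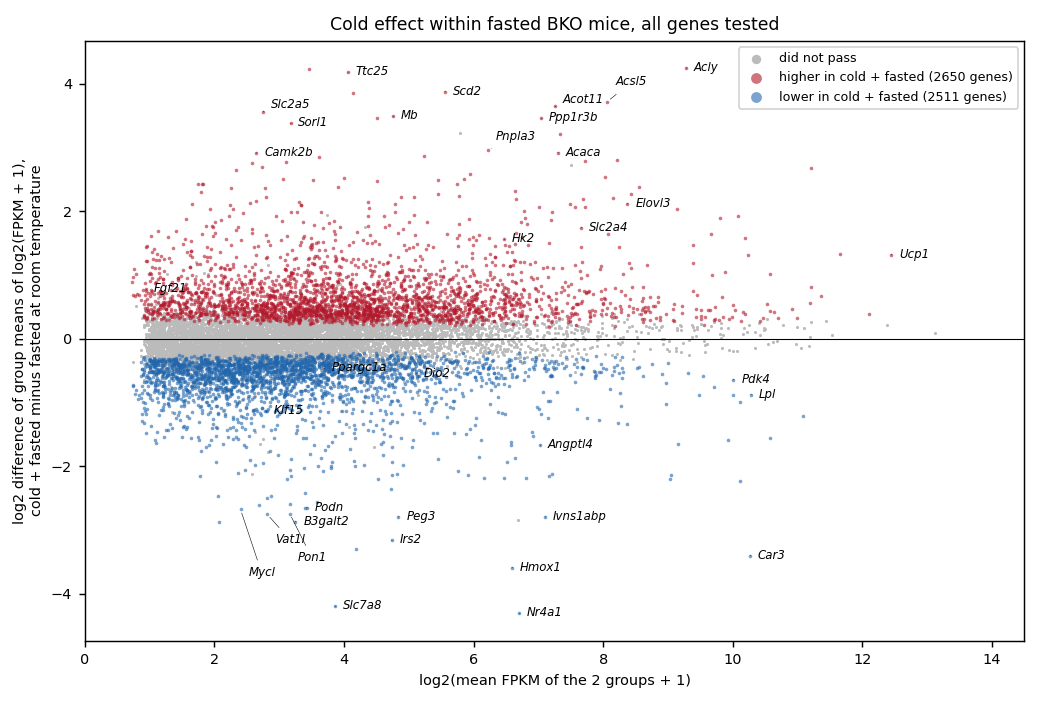
Log2 difference between cold-fasted and room-temperature fasted knockouts (vertical axis, log2 units) against mean expression (horizontal axis, log2 of mean FPKM plus 1), with 1 point per gene tested. Red points are the 2650 genes higher and blue points the 2511 genes lower in cold, grey points did not pass, and labels mark genes chosen by the naming rule. Acly and Ttc25 stand at the top and Nr4a1 and Slc7a8 at the bottom.

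Among protein-coding genes, the largest rises on the log2(FPKM + 1) scale were led by the enzyme that feeds fatty acid synthesis. Acly, the ATP citrate lyase that makes cytosolic acetyl-CoA, held 1403, 1032 and 1108 FPKM in cold-fasted libraries and 78.5, 52.7 and 54.5 FPKM in fasted libraries at room temperature. The groups were far apart, with a ratio of mean FPKM of 19.1 and a log2 difference of 4.24 (SE 0.25, limma adjusted p = 2.95e-08). Ttc25 lies 17606 bases from Acly on chromosome 11, on the opposite strand, and held 35.4, 24.1 and 32.2 FPKM in cold against 1.09, 0.513 and 0.616 FPKM at room temperature, a log2 difference of 4.18 (SE 0.27, limma adjusted p = 8.38e-08). Scd2, a stearoyl-CoA desaturase, held 122, 73.0 and 66.3 FPKM in cold against 7.05, 4.01 and 3.81 FPKM. Its log2 difference was 3.87 (SE 0.32, limma adjusted p = 7.53e-07), with no overlap between the groups.

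The other large rises included further lipid, sugar and glycogen genes. Acsl5, an acyl-CoA synthetase that activates fatty acids, held 517, 489 and 484 FPKM in cold against 34.5, 41.5 and 34.9 FPKM at room temperature, a log2 difference of 3.72 (SE 0.18). Acot11, an acyl-CoA thioesterase known from cold-exposed brown fat, differed by 3.64, and Slc2a5, the fructose transporter GLUT5, by 3.56 from a level of at most 0.0578 FPKM at room temperature. Ppp1r3b, which targets protein phosphatase 1 to glycogen, differed by 3.46 and Pnpla3, a lipid-droplet hydrolase, by 2.96. Mb, the oxygen-binding myoglobin, held 49.9, 53.8 and 41.5 FPKM in cold against 5.46, 2.46 and 2.78 FPKM and differed by 3.48. Sorl1, a sorting receptor, Acaca, the acetyl-CoA carboxylase of lipogenesis, and Camk2b, a calmodulin-dependent kinase subunit, completed the 12 largest rises with differences of 3.38, 2.92 and 2.91. None of these 12 genes had overlapping groups, as the naming rule required. Their order depended on the value added to FPKM before the log. With 0.1 in place of 1, Slc2a5, Ttc25 and Sorl1 differed by 6.29, 5.23 and 4.55, beside 4.26 for Acly.

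The promoter window of Acly is shown because this gene had the largest rise. It covers chr11:100527951-100528250 on the minus strand of GRCm38.p6 (RefSeq, 250 bases before to 50 after the start), and capitals mark matches on either strand to CCNCNCCC, a C-rich box of the kind bound by KLF and SP factors.
Acly: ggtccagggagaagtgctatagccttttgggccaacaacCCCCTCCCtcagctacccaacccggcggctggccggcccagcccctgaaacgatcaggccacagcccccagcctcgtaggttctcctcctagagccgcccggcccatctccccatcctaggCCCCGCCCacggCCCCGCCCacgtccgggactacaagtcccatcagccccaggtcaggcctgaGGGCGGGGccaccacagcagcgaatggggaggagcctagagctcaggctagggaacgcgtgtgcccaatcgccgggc
The window holds 4 such matches. They are a description and not a shown binding site, because 51.9% of all 27025 promoter windows in the table hold this pattern, as do 73.5% of the 8362 tested genes with a window, 70.7% of genes higher in cold and 76.8% of genes lower in cold.

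De novo lipogenesis, which turns acetyl-CoA into fatty acids, was higher nearly throughout. Of 16 listed genes tested, 14 were higher and none lower, and the median log2 difference of the list was 2.30 beside -0.012 for all genes. Thrsp, a small lipogenic protein abundant in adipocytes, held 3531, 3684 and 5023 FPKM in cold-fasted libraries against 585, 618 and 697 FPKM at room temperature (log2 difference 2.67, limma adjusted p = 3.04e-08). Slc25a1, the mitochondrial citrate exporter, held 666, 495 and 735 FPKM against 124, 121 and 114 FPKM (difference 2.37). Every cold-fasted library lay above every room-temperature library for both. Transcription factors of lipogenesis rose as well: Mlxipl, encoding the carbohydrate-responsive factor ChREBP, differed by 1.60 and Srebf1, encoding SREBP-1, by 1.80. Me1, malic enzyme, differed by 2.78, Acss2, which activates acetate, by 2.32 and the elongase Elovl6 by 2.07. Fads1 and Fads2, desaturases of polyunsaturated fatty acids, did not pass, with differences of -0.15 and -0.01 and levels near 3 FPKM in all 6 libraries.

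**Figure D2:**
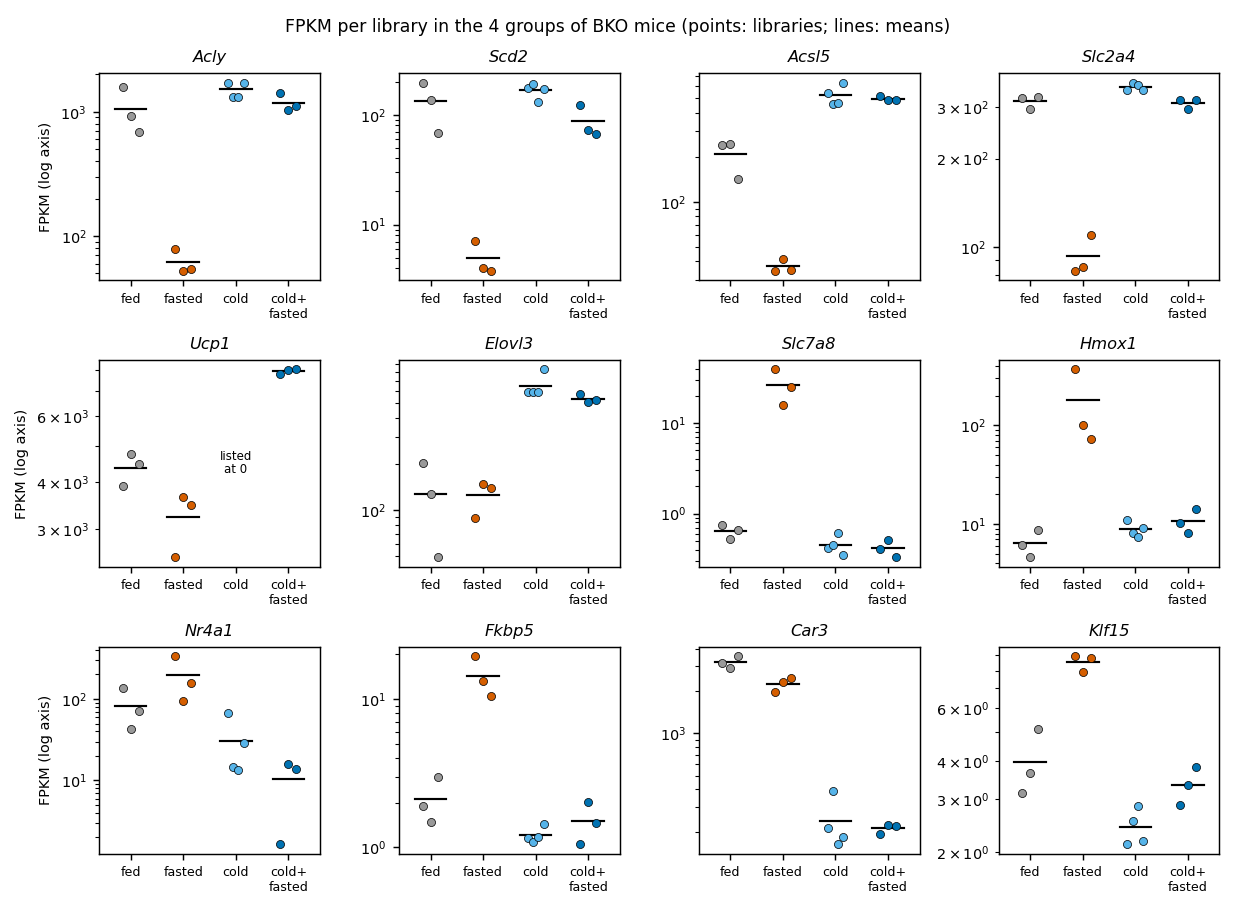
FPKM on log axes for 12 genes in each library of the 4 knockout groups, with points for libraries and lines for group means. Acly, Scd2, Acsl5 and Slc2a4 are low in the room-temperature fasted group alone, Slc7a8, Hmox1, Fkbp5 and Klf15 are high there alone, while Elovl3 is high and Car3 low in both cold groups. Ucp1 is listed at 0 in the cold group without labelled fasting and is not drawn there.

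Genes of the NADPH and sugar pathways were higher as well. Pgd, which makes NADPH in the pentose phosphate pathway, held 562, 450 and 538 FPKM in cold-fasted libraries against 78.9, 66.8 and 73.8 FPKM at room temperature (log2 difference 2.80, limma adjusted p = 1.28e-07). Tkt, transketolase, differed by 1.92 and G6pdx, glucose-6-phosphate dehydrogenase, by 1.21. Among 19 tested genes of glucose uptake and glycolysis, 17 were higher and 1 lower, with a median difference of 1.27. Pfkl, the liver-type phosphofructokinase, was the most clearly separated of them, at 447, 445 and 437 FPKM in cold against 72.9, 73.0 and 82.5 FPKM (difference 2.53, SE 0.08, limma adjusted p = 3.52e-10). Slc2a4, the insulin-responsive transporter GLUT4, held 318, 297 and 318 FPKM against 83.0, 85.7 and 110 FPKM (difference 1.74), and Hk2, hexokinase 2, held 145, 132 and 116 FPKM against 38.7, 41.9 and 51.6 FPKM (difference 1.56). The lone fall in the list was Pfkfb3, whose product makes the allosteric activator of phosphofructokinase, with 148, 104 and 111 FPKM in cold against 184, 339 and 273 FPKM (difference -1.10, limma adjusted p = 0.000742). Slc2a1, encoding the basal transporter GLUT1, lay between 2.23 and 2.90 FPKM in all 6 libraries and did not pass (limma adjusted p = 0.866).

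Genes for the entry of pyruvate into the mitochondrion were mostly higher. Of 12 tested genes of the pyruvate dehydrogenase gate, 8 were higher and 2 lower, with a median difference of 0.76. Pdhb, a subunit of the complex, held 939, 949 and 1047 FPKM in cold against 353, 372 and 339 FPKM (difference 1.46, limma adjusted p = 2.62e-07), and Mpc2, of the pyruvate carrier, differed by 1.18. The kinases that switch the complex off did not move together. Pdk1 was higher by 1.47, whereas Pdk4, a gene usually raised by fasting, held 723, 968 and 718 FPKM in cold against 1121, 1527 and 1125 FPKM at room temperature (difference -0.64, limma adjusted p = 0.00184) and Pdk2 had a difference of -0.28 (limma adjusted p = 0.0195, but 0.0638 and 0.0688 without library 1 or 3 of the room-temperature fasted group).

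Cholesterol synthesis was the other broadly higher pathway. Of 23 tested genes of sterol synthesis and uptake, 21 were higher and 1 lower, with a median difference of 1.44. Fdps, farnesyl diphosphate synthase, held 75.2, 55.3 and 90.7 FPKM in cold against 14.2, 10.9 and 11.2 FPKM (difference 2.49). Nsdhl, which acts late in the pathway, differed by 2.22 and Insig1, the sterol sensor that retains SREBP in the endoplasmic reticulum, by 2.00. Hmgcs1, the synthase at the start of the pathway, rose less, from 75.4, 98.7 and 92.9 FPKM to 164, 163 and 139 FPKM (difference 0.80, limma adjusted p = 0.0012). Against this, Fdft1, the squalene synthase between Fdps and the sterol branch, was lower, with 24.5, 40.7 and 35.4 FPKM in cold against 127, 96.4 and 84.7 FPKM at room temperature (difference -1.60, limma adjusted p = 1.62e-05), and its groups did not overlap. Ebp did not pass (difference -0.05).

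Hmgcs1 is the single one of the 16 sterol genes with a promoter window that matched TCACNCCAC, a sterol regulatory element searched on both strands, and its window is shown for that reason (chr13:119690101-119690400, plus strand, GRCm38.p6, RefSeq, match in capitals).
Hmgcs1: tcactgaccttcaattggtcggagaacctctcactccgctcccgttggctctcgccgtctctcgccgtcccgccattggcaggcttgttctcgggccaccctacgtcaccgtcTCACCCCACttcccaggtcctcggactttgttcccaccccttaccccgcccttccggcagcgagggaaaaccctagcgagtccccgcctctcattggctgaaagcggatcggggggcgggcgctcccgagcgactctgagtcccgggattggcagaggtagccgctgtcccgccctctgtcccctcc
The pattern was found in 1.44% of all windows, in 1.58% of genes higher in cold and in 1.28% of genes lower in cold. The E-box CACGTG was found in 8.09% of all windows, 10.7% of genes higher and 13.9% of genes lower, and the cAMP response element TGACGTCA in 2.03%, 3.0% and 3.74%. Among all tested genes with a window the shares were 1.42% for the sterol element, 12.3% for the E-box and 3.78% for the cAMP element.

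Among thermogenic genes, Ucp1 and Elovl3 were higher in cold. Ucp1 held 7785, 7973 and 8001 FPKM in cold-fasted libraries against 2524, 3666 and 3490 FPKM at room temperature, a ratio of mean FPKM of 2.45 and a log2 difference of 1.31 (SE 0.14, limma adjusted p = 2.7e-05, in a fit without the 4 other cold libraries, where Ucp1 is listed at 0), and the difference was 0.53 after quantile normalization. Elovl3, the cold-inducible fatty acid elongase of brown fat, held 574, 510 and 523 FPKM against 88.9, 149 and 140 FPKM (difference 2.12, limma adjusted p = 0.000361). For both genes all cold libraries lay above all others. Of 20 tested thermogenic genes, 6 were higher and 3 lower, with a median difference of 0.13, and 5 were lower without library 2 of the cold-fasted group or after quantile normalization. These shares lie near those over all genes (22.5% higher and 21.3% lower). Dio2, the deiodinase that activates thyroid hormone, did not pass at 18.3, 42.4 and 22.6 FPKM in cold against 49.4, 35.6 and 32.9 FPKM (difference -0.55, limma adjusted p = 0.14), but it depended on single cold-fasted libraries. Without library 2 of that group Dio2 differed by -0.90 and passed (limma adjusted p = 0.0175), without library 1 it differed by -0.31, and with array weights by -0.062. Ppargc1a, the coactivator of mitochondrial biogenesis, did not pass either, at 11.5, 9.88 and 7.53 FPKM against 8.32, 17.4 and 16.9 FPKM (difference -0.47, limma adjusted p = 0.336), with -0.79 without library 1 and -0.30 without library 2 of the room-temperature fasted group. Esrra, a nuclear receptor of mitochondrial genes, was higher by 0.79, whereas Kcnk3, a potassium channel, had a difference of -0.55 and Slc27a2, a very long-chain acyl-CoA synthetase, had a difference of -0.98. Fgf21, a hormone that brown fat can release, stood at 1.07, 1.18 and 2.08 FPKM in cold against 0.547, 0.370 and 0.304 FPKM (difference 0.78, limma adjusted p = 0.00758). Gdf15 stayed under the expression filter.

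Heat-shock chaperones were higher and cold-inducible RNA-binding proteins lower. Of 13 tested genes in that list, 11 were higher and 2 lower, with a median difference of 0.73, and 7 were higher without library 1 of the cold-fasted group, without library 2 or 3 of the other group, after quantile normalization, with array weights or with no filter on low values. Hsph1, a large HSP70-family chaperone, held 62.3, 23 and 29 FPKM in cold against 4.50, 7.24 and 4.98 FPKM (difference 2.47, limma adjusted p = 3.74e-05), Cryab, a small heat-shock protein, differed by 1.82 and Dnaja1, a co-chaperone, by 1.55. The 2 falls were Rbm3 and Cirbp, known from cultured cells as messages that rise with mild cooling. Rbm3 held 5.14, 4.89 and 5.98 FPKM in cold against 15.4, 16.3 and 14.8 FPKM at room temperature (difference -1.38, limma adjusted p = 1.63e-06), and Cirbp held 10.7, 19.2 and 16.6 FPKM against 43.3, 31.4 and 42.4 FPKM (difference -1.30, limma adjusted p = 0.000213). All 3 cold libraries lay below all 3 others for each.

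**Figure D3:**
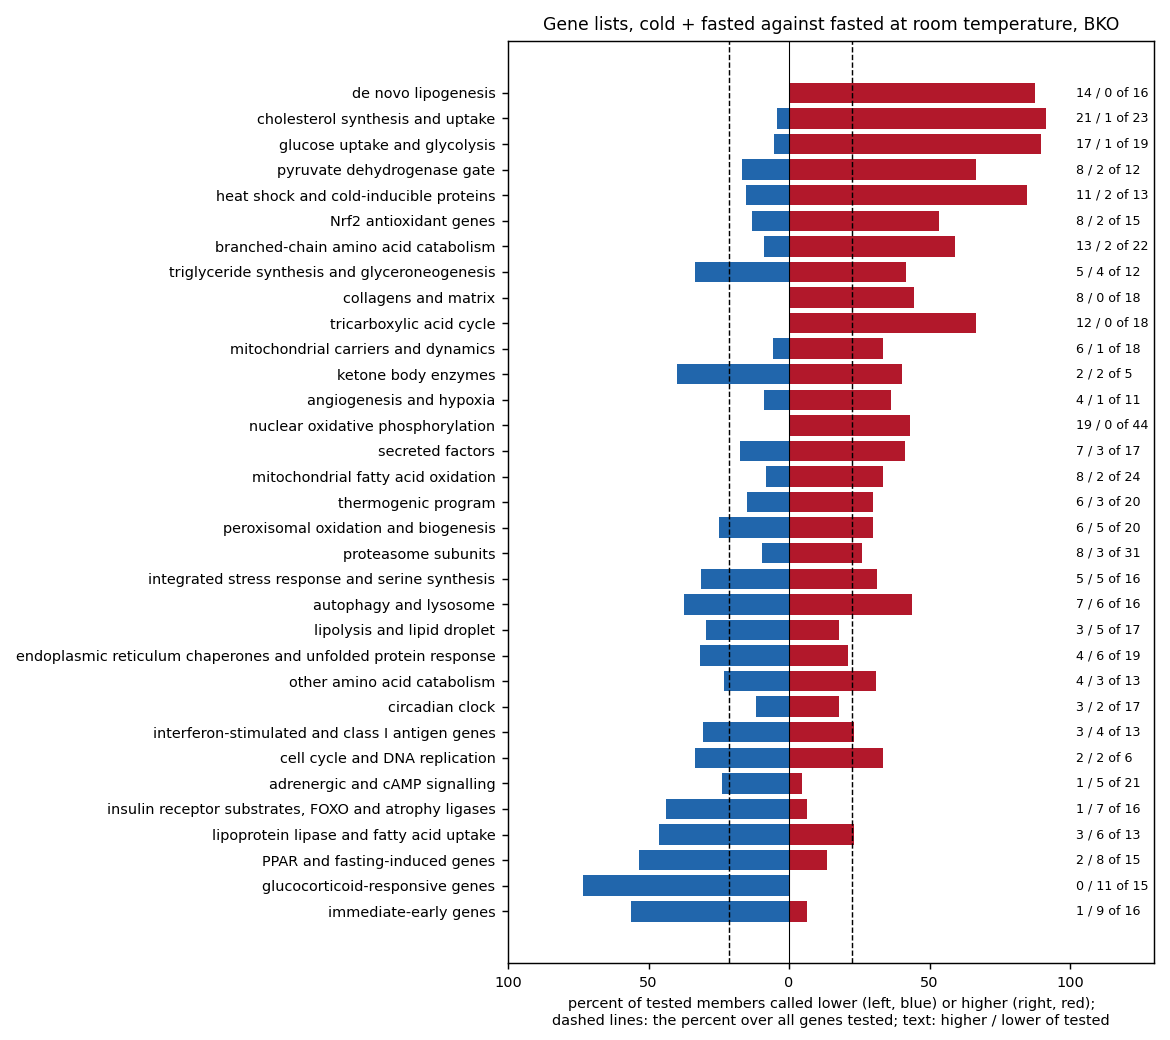
Share of tested members of each gene list that were higher (red, right) or lower (blue, left) in cold-fasted than in room-temperature fasted knockouts, in percent, with counts at the right and dashed lines at the shares over all genes (22.5% and 21.3%). Lipogenesis, sterol synthesis and glycolysis lie at the top, and glucocorticoid-responsive and immediate-early genes at the bottom, lists being ordered by their median difference.

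The largest falls held transporters, stress genes and signalling factors. Nr4a1, an orphan nuclear receptor induced within minutes by cAMP, held 1.65, 15.8 and 13.8 FPKM in cold-fasted libraries against 334, 95.7 and 157 FPKM at room temperature (difference -4.31, SE 0.71, limma adjusted p = 0.000282). Slc7a8, the amino acid transporter LAT2, held 0.409, 0.509 and 0.327 FPKM against 39.1, 15.8 and 25.1 FPKM (difference -4.20, SE 0.22, limma adjusted p = 1.66e-08). Hmox1, the haem oxygenase that breaks down haem, held 10.3, 8.10 and 14.2 FPKM against 367, 100 and 72.6 FPKM (difference -3.60, limma adjusted p = 1.91e-05). These 3 genes showed no overlap, and library 1 of the room-temperature fasted group was the highest for each of them.

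Metabolic and imprinted genes followed among the falls. Car3, the carbonic anhydrase abundant in adipocytes, held 192, 222 and 220 FPKM in cold against 1975, 2302 and 2474 FPKM (difference -3.40), and Irs2, an insulin receptor substrate, held 2.35, 11.1 and 2.07 FPKM against 66.6, 41.4 and 30.3 FPKM (difference -3.16, limma adjusted p = 0.000462). Peg3, a paternally expressed zinc finger gene, held 6.42, 7.61 and 4.50 FPKM against 40.3, 64.5 and 42.5 FPKM (difference -2.80). B3galt2, a galactosyltransferase, differed by -2.87, Ivns1abp, an actin-organising Kelch protein, by -2.80 and Vat1l by -2.76. Pon1, a paraoxonase carried on lipoproteins in blood, differed by -2.75, Mycl, a MYC-family factor, by -2.68 and Podn, a matrix proteoglycan, by -2.65. Of the 24 largest changes, Acaca, Acot11, Acsl5, B3galt2, Mb and Podn overlap another protein-coding gene, and reads shared with it cannot be told apart because strand-aware counting is not stated.

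Glucocorticoid-responsive genes were lower as a group. Of 15 tested, 11 were lower and none higher, with a median difference of -0.84, and 7 were lower when library 1 of the cold-fasted group was left out. Fkbp5, the co-chaperone of the glucocorticoid receptor and one of its classic targets, held 1.05, 2.02 and 1.45 FPKM in cold against 19.4, 13.3 and 10.5 FPKM at room temperature (difference -2.60, SE 0.21, limma adjusted p = 5.61e-07). Sult1a1, a sulfotransferase, held 11.7, 23.2 and 18.9 FPKM against 77.4, 51.8 and 73.8 FPKM (difference -1.89). The metallothioneins Mt1 and Mt2, small metal-binding proteins, differed by -1.60 and -2.20. Mt2 held 113, 167 and 186 FPKM in cold against 1779, 418 and 465 FPKM, again with library 1 of the room-temperature fasted group far above the other libraries. Nr3c1, the receptor itself, did not pass (difference 0.13).

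Genes that fasting normally raises through PPAR factors were lower in the cold-fasted libraries or did not pass, with a pair of exceptions. Of 15 tested, 2 were higher and 8 lower, with a median difference of -0.64, beside 22.5% higher and 21.3% lower over all genes. Among genes with a mean of at least 5 FPKM 5 were lower, a filter that tests fewer genes. Angptl4, the secreted inhibitor of lipoprotein lipase, held 49.5, 83.5 and 54.3 FPKM in cold against 170, 213 and 207 FPKM (difference -1.67, limma adjusted p = 1.94e-05). The groups did not overlap. Vnn1, a pantetheinase, differed by -1.76, Cyp4a10, a fatty acid omega-hydroxylase, by -1.30 and Cidec, a lipid droplet fusion protein, by -0.89. The 2 rises were Plin2, a lipid droplet coat protein, at 0.68 and Ppard, the delta receptor, at 0.65. Lpl, the lipase that releases fatty acids from circulating lipoproteins and is inhibited by ANGPTL4, was also lower, with a difference of -0.88.

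Insulin signalling and atrophy genes were lower more often than higher, with 7 of 16 lower and 1 higher and a median difference of -0.23. Over all genes 21.3% were lower and 22.5% higher. Among genes with a mean of at least 5 FPKM 3 were lower, but that filter tests fewer genes, so this count does not stand against the same 16. Trim63, the muscle atrophy ubiquitin ligase MuRF1, held 0, 0.145 and 0.228 FPKM in cold-fasted libraries against 11.9, 2.71 and 4.00 FPKM (difference -2.47, limma adjusted p = 2.79e-05). Foxo3, a factor that drives atrophy genes, and Igf1r, the receptor for insulin-like growth factor, differed by -0.81 and -0.85. Markers of skeletal muscle, a tissue that lies near brown fat, were compared beside this list. None of 10 tested passed with limma and none had an unadjusted p under 0.05, but their median difference was 0.69. Their summed level was 75.2 to 184 FPKM in cold against 44.4 to 154 FPKM at room temperature. With that spread between libraries, the lack of calls does not show equal muscle content.

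Immediate-early genes were lower in 9 of 16 and higher in 1, with a median difference of -0.99, and the 1 higher gene lost its call in 4 of the 6 runs that left out 1 library. Myc, a growth-promoting transcription factor, held 0.5, 2.61 and 0.593 FPKM in cold against 6.37, 4.82 and 5.31 FPKM at room temperature (difference -1.66, limma adjusted p = 0.000225), and the Krüppel-like factors Klf4 and Klf6 differed by -0.85 and -0.89. Much of the spread came from library 1 of the room-temperature fasted group, which held 29.4 FPKM of Fos beside 1.13 and 0.737 FPKM in its replicates, and 103 FPKM of Egr1 beside 6.57 and 3.97 FPKM. Fos and Egr1 did not pass (limma adjusted p = 0.114 and 0.19), and Fosb, although called, went from -2.62 to -1.62 when that library was left out. Genes of adrenergic and cAMP signalling were higher in 1 and lower in 5 of 21, a share of falls near the 21.3% over all genes. The 1 higher became 2 without library 1 or 3 of the room-temperature fasted group. The falls included Nr4a3 (difference -2.16), Rgs2, a brake on G-protein signalling (-2.18), and the phosphodiesterase Pde4d (-1.23).

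Lists of mitochondrial fuel use had small median differences, although some single genes differed by more. Over all 11798 genes 22.5% were higher and 21.3% lower, and after quantile normalization 2647 genes were higher and 2679 lower. In the tricarboxylic acid cycle 12 of 18 genes were higher and none lower, with a median difference of 0.29, and 4 were higher and 1 lower after quantile normalization. Dlst, of the oxoglutarate dehydrogenase complex, held 652, 675 and 614 FPKM in cold against 426, 451 and 457 FPKM (difference 0.54, limma adjusted p = 7.14e-05, and 0.36 after quantile normalization). Of 44 nuclear genes of oxidative phosphorylation, 19 were higher and none lower, with a median of 0.24, against 11 higher and 6 lower after quantile normalization, so the excess of rises was smaller under that scaling. Mitochondrial fatty acid oxidation had 8 higher and 2 lower of 24, but 4 higher and 7 lower after quantile normalization, so the balance of this family turned with the scaling. Branched-chain amino acid catabolism had 13 higher and 2 lower of 22, with a median of 0.39, and 4 lower after quantile normalization. Mmab, which makes the cobalamin cofactor of propionate breakdown, differed by 1.67 and Pcca, of propionyl-CoA carboxylase, by 1.11, whereas Hsd17b10, a dehydrogenase of isoleucine breakdown, differed by -1.27. Other amino acid genes were mixed: Got1, the cytosolic aspartate transaminase, rose by 1.92, Fah, the last enzyme of tyrosine breakdown, by 1.56, and Asl, argininosuccinate lyase, fell from 39.3, 19.6 and 24.9 FPKM to 5.44, 6.04 and 6.33 FPKM (difference -2.01).

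In triglyceride synthesis 5 of 12 genes were higher and 4 lower, beside shares of 22.5% higher and 21.3% lower over all genes. Without library 2 of either group 3 were higher, and without library 3 of the room-temperature fasted group 2 were lower. Agpat2, an acyltransferase of phosphatidate synthesis, held 1777, 1581 and 1876 FPKM in cold against 509, 586 and 672 FPKM (difference 1.57), whereas Pck1, the enzyme of glyceroneogenesis, held 1026, 1541 and 1372 FPKM against 2993, 2884 and 3158 FPKM (difference -1.22, limma adjusted p = 2.57e-05) and Dgat2, which adds the last fatty acid, differed by -0.89. Of 17 lipolysis and droplet genes 3 were higher and 5 lower, near the shares over all genes (22.5% and 21.3%), with Mgll, the monoglyceride lipase, higher by 1.19 and Plin4, a droplet coat protein, at -1.18.

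**Figure D4:**
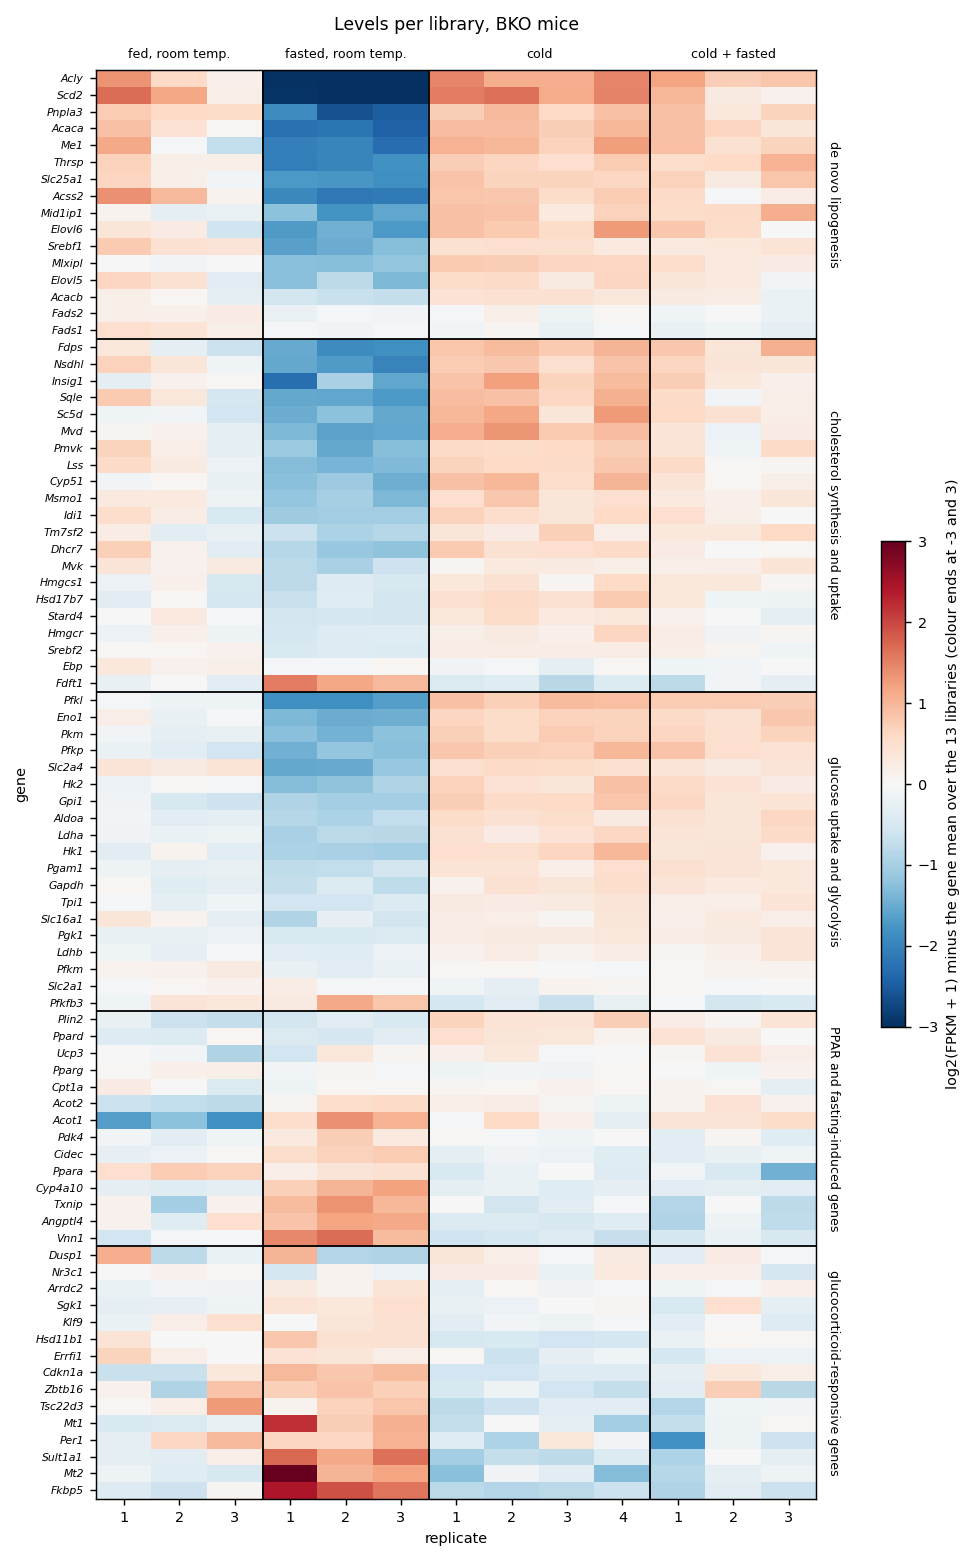
Level of tested genes of 5 lists in each of the 13 knockout libraries, as log2(FPKM + 1) minus the gene's mean over those libraries (colour scale in log2 units, ending at -3 and 3), with rows ordered within a list by the log2 difference in fasted mice. Most lipogenic, sterol and glycolytic genes are lowest in the 3 room-temperature fasted libraries, and Fkbp5, Mt2, Vnn1 and Fdft1 are highest there.

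Levels in the other knockout groups are given for the genes at the ends of the range. Acly held 1567, 930 and 685 FPKM in fed libraries and 1704, 1316, 1306 and 1714 FPKM in cold libraries without labelled fasting, so the cold-fasted values of 1032 to 1403 FPKM lay within the range of the fed group. Slc7a8 lay between 0.346 and 0.756 FPKM in those 7 libraries, close to the 0.327 to 0.509 FPKM of the cold-fasted group. Fkbp5 lay between 1.08 and 3.00 FPKM in the 7 libraries. A different pattern held for Elovl3 and Car3. Elovl3 held 590 to 830 FPKM in the other cold libraries and 49.1 to 205 FPKM in fed libraries. Car3 held 163 to 391 FPKM and 2929 to 3520 FPKM in the same order. Both thus separated by the temperature label with or without a label of fasting. The other cold libraries have library numbers 15, 16, 18 and 19, and the fed ones have 29, 30 and 32. Cold and the run of library numbers therefore cannot be told apart in this comparison either.

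The difference between the cold effect in fasted knockouts and that in knockouts not labelled as fasted was tested directly. It passed for 1354 of 11797 genes (11.5%, limma with Benjamini-Hochberg adjustment over all of them), being more positive in fasted mice for 717 (6.08%) and more negative for 637 (5.4%). Lipogenesis stood out in counts, with 13 of 16 tested genes more positive and none more negative, and median cold effects of 2.30 in fasted and 0.44 in other mice. Sterol synthesis had 10 more positive and 1 more negative, the latter being Fdft1, and glycolysis had 10 more positive and none more negative. The PPAR and fasting-induced list had 9 more negative and none more positive, and its median cold effect was -0.64 in fasted and 0.03 in other mice. Of 15 glucocorticoid-responsive genes 3 were more negative and none more positive, with median effects of -0.84 and -0.42, and of 16 immediate-early genes none passed in either direction, with medians of -0.99 and -0.41. Acly differed by 3.66 between the effects (SE 0.34), the cold effect being 4.24 in fasted mice and 0.58 in the others. Slc7a8 differed by -4.02 (limma adjusted p = 7.27e-06), with cold effects of -4.20 and -0.18. For Mb, Elovl3 and Car3 the difference did not pass, with values of 0.18, -0.44 and 0.43 (limma adjusted p = 0.814, 0.612 and 0.423).

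**Figure D5:**
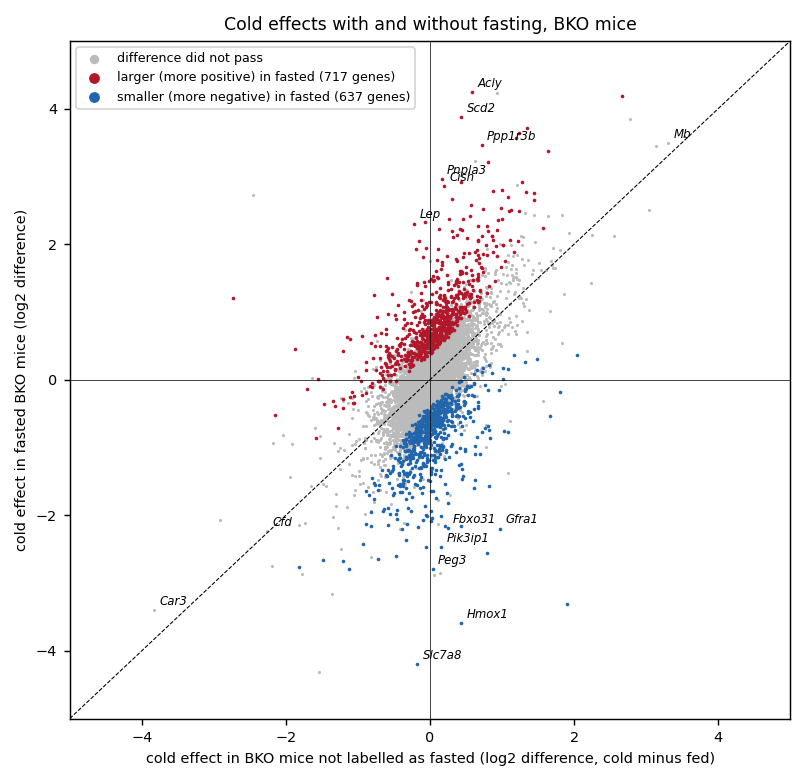
Cold effect in fasted knockouts (vertical axis) against cold effect in knockouts not labelled as fasted (horizontal axis), both as log2 differences, with 1 point per gene tested. Red and blue points are the 717 genes and 637 genes whose difference between the effects passed, grey points did not, and the dashed line marks equal effects. Acly and Scd2 lie near 0 on the horizontal axis and high on the vertical one, Slc7a8 and Hmox1 low on it, and Mb, Cfd and Car3 lie near the line.

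Against the cold effect in fasted flox/flox mice, 58 genes of 11798 differed (0.492%, limma with Benjamini-Hochberg adjustment), 27 more positive (0.229%) and 31 more negative (0.263%) in knockouts. The 3 fasted flox/flox libraries at room temperature all belong to an earlier run of library numbers (1 to 3) than every other library of this contrast. Within the libraries of this contrast, the flox/flox cold effect and the library run therefore cannot be told apart, and the difference from knockouts carries that limit. With the run as a term fitted over all 26 libraries, 5 genes passed, each with an adjusted p of 0.0488: Fbf1, Selenbp1 and Tango2 with a more positive effect in knockouts (1.08, 1.45 and 1.26) and Decr2 and Podn with a more negative one (-0.83 and -1.13). These 5 genes were named after their values were seen. The run term rests on the flox/flox groups that hold both runs, cold without labelled fasting and fed at room temperature. In those groups only library numbers 17 and 31 are of the later run, and the term takes the run effect to be equal in all conditions.

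Markers of other cells were compared because whole tissue was sequenced, in which fewer cells of a type and less RNA per cell cannot be told apart. Brown adipocyte markers summed to between 25847 and 32355 FPKM in cold-fasted libraries and between 19926 and 23448 FPKM at room temperature. That sum includes Ucp1, itself higher in cold, so it does not gauge adipocyte content alone. Of 10 markers 2 were higher and 1 lower (2 lower without library 2 of the cold-fasted or library 3 of the other group). These counts stand beside shares of 22.5% and 21.3% over all genes, and the median difference was 0.001. Epithelial markers were at or near 0 in all 6 libraries, with Epcam, Krt5, Krt8 and Krt14 listed at 0. Of 8 macrophage markers none passed with limma and none had an unadjusted p under 0.05 (up to 2 passed when 1 library was left out or under another scaling). All 5 erythroid markers were higher, summing to between 427 and 996 FPKM against 158 to 292 FPKM, with 3 higher without library 3 of the cold-fasted group, and the near-identical haemoglobin copies among them may share reads. Ighm, an immunoglobulin heavy chain of B cells, was higher by 2.09. Fibroblast markers summed to between 96.5 and 106 FPKM in cold against 114 to 130 FPKM, with 4 of 6 higher (1 to 3 when 1 library was left out) and Dcn lower, and endothelial markers to between 145 and 198 FPKM against 168 to 184 FPKM, with 2 of 7 higher and 1 lower (up to 3 lower when 1 library was left out). The part of any of these cells in the results above was not tested.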

How the data were processed

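Whole brown adipose tissue RNA was sequenced, and the deposited table gives the authors' FPKM values per gene and library; per the submitters' processing notes the tools were STAR, Cufflinks and Cuffdiff on mm10, with versions, strand use and read depth not given in the sources used here. Of 48432 genes, 22533 are at 0 in all 26 libraries. An exact 0 in a gene whose other values all reach 100 FPKM was set to missing. Genes with at least 1 FPKM in 3 of the 6 libraries (11801) were kept and log2(FPKM + 1) was fitted with limma 3.58.1 in R 4.3.3 (trended empirical Bayes, 13 knockout libraries in 4 groups), two-sided, with Benjamini-Hochberg adjustment over all tested genes and a threshold of 0.05. The comparison with flox/flox mice used 26 libraries in 8 groups. The fit was tested on simulated data. Alternatives were a pseudocount of 0.1, no filter, a mean of at least 5 FPKM, quantile and median ratio scaling, the 6 libraries alone, all 26, array weights, the library run as a term, and leaving out each library.

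Genes were named by rule: 14 by name, the 12 largest rises and falls (protein-coding, called, no overlap, at least 5 FPKM in the higher group), the 6 largest differences of cold effects each way, and up to 4 of smallest p per list. Other genes named, such as Fdft1, Pfkfb3, Cirbp and Fos, were chosen after their values were seen. The members and lists were chosen with earlier results of these data known. Coordinates come from GENCODE M21, which matched 48051 IDs. Some genes of these lists are counted but not reported by name here.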

Additional observations from a re-analysis of the deposited data

Results flagged for a closer look

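The cold effect differed between fasted knockouts and knockouts not labelled as fasted for 1354 genes (limma, adjusted over all genes), and the 6 largest differences in each direction are given. The positive ones were Acly at 3.66, Scd2 at 3.44, Pnpla3 at 2.80, Ppp1r3b at 2.74, Cish at 2.66 and Lep at 2.53.

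Cish, a cytokine-induced inhibitor of signalling, held 6.62, 10.9 and 46.4 FPKM in cold-fasted libraries against 1.56, 1.16 and 1.07 FPKM, so 1 library is far above its replicates. Lep, the adipocyte hormone leptin, held 4.62, 5.12 and 4.51 FPKM in cold-fasted libraries against 0.363, 0.0276 and 0.129 FPKM, while fed libraries held 7.36 to 14.2 FPKM and the other cold libraries 3.97 to 11.7 FPKM. The low level of leptin was thus seen in the room-temperature fasted group, whose libraries lay below all others of this genotype.

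The negative ones were Slc7a8 and Hmox1, each at -4.02, Gfra1 at -3.18, Peg3 at -2.83, Pik3ip1 at -2.63 and Fbxo31 at -2.44. Gfra1, a receptor for glial-derived growth factor, held 1.52, 3.65 and 1.24 FPKM in cold-fasted libraries against 19.3, 9.02 and 11.5 FPKM. Pik3ip1, an inhibitor of phosphatidylinositol 3-kinase, held 1.34, 1.36 and 0.992 FPKM against 13.1, 11.2 and 9.80 FPKM. Fbxo31, a substrate receptor of a ubiquitin ligase, held 19.3, 30 and 24 FPKM against 162, 95.2 and 94.5 FPKM. All 3 genes had their highest values in the room-temperature fasted group.

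The cold effect of fasted knockouts differed from that of fasted flox/flox mice for 58 genes. For the 12 genes above, no library of the 4 cold ones without labelled fasting stood apart from the others, and no other gene or group was examined in this way.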

How the results depend on the processing

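The count of genes that differed between cold-fasted and room-temperature fasted knockouts was 5161. It lay between 3652 (mean of at least 5 FPKM) and 6329 (array weights), and between 4232 and 4752 with 1 library left out. The 1354 differences from the cold effect without labelled fasting became 2331 with array weights and 974 to 1286 with 1 library left out. The 58 differences from flox/flox mice became 5 with the library run as a term, and 14 to 300 with 1 library left out, 14 without library 3 of the fasted room-temperature knockouts and 300 without library 2 of the fasted room-temperature flox/flox mice; the cause was not tested. Of 176 named genes that passed, 168 kept direction and call under every alternative run, and 8 lost the call in at least 1. Of 22 named genes that did not pass, 10 stayed so, 11 gained a call in at least 1 alternative and S100a8 turned its sign, from -0.29 to 0.095 with array weights. Cish was the 1 of 12 named differences that lost its call. No paired analysis was possible because the labels carry no replicate numbers shared between groups. Depth is unknown, so low FPKM values have no counting interval.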

Other observations

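Matrix genes were higher more often than lower in cold-fasted knockouts, with 8 of 18 tested collagen and matrix genes higher and none lower (median difference 0.32, beside -0.012 over all genes). Serpinh1, the collagen chaperone HSP47, held 207, 127 and 163 FPKM in cold against 32.4, 33.2 and 39.1 FPKM at room temperature (difference 2.19, limma adjusted p = 1.7e-07). P4ha1, a collagen prolyl hydroxylase subunit, differed by 1.84 and Col15a1, a basement membrane collagen, by 0.97. The cold effect was more positive than without labelled fasting for 10 of the 18 genes and more negative for none, and the median effect in mice not labelled as fasted was -0.44. Fibroblast and progenitor markers, a list that itself includes the collagens Col1a1 and Col3a1, were compared beside them. Of 6 tested markers 4 were higher and 1 lower (median difference 0.48), with 1 to 3 higher when 1 library was left out. Their cold effect was more positive than without labelled fasting for 4 and more negative for none. The summed level of these markers was 96.5 to 106 FPKM in cold-fasted libraries against 114 to 130 FPKM, and their part in the matrix result was not tested.

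Autophagy and lysosome genes were split, with 7 of 16 higher and 6 lower (median difference -0.019), beside 22.5% higher and 21.3% lower over all genes. The lysosomal protease Ctsd held 1092, 1005 and 1162 FPKM in cold against 509, 540 and 579 FPKM. The autophagosome genes Gabarapl1, Sqstm1 and Map1lc3b were lower, with differences of -1.24, -1.24 and -0.84, and each had its highest levels of the 13 knockout libraries in the room-temperature fasted group. Of 16 genes of the integrated stress response and serine synthesis, 5 were higher and 5 lower (median difference 0.028), beside the same 22.5% and 21.3% over all genes. Psph, the last enzyme of serine synthesis, held 35.1, 28.7 and 34.0 FPKM in cold against 5.91, 6.66 and 7.32 FPKM (difference 2.14), whereas Trib3, a pseudokinase target of ATF4, held 5.07, 4.84 and 5.01 FPKM against 16, 20.8 and 20.5 FPKM (difference -1.74) and the stress sensor Sesn2 differed by -1.92.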
